A study of Caenorhabditis elegans with 9 samples.

Results

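RNA of whole L4 *C. elegans* hermaphrodites was sequenced in 9 libraries, and the 6 that carry no transgene were compared here by how much spermatogenesis RNA they held. WT replicates 1 and 3 and *atf-4(tm4397)* replicate 2 were the sperm-gene-high libraries. WT replicate 2 and *atf-4(tm4397)* replicates 1 and 3 were the sperm-gene-low libraries. The sides were read from the measured spermatogenesis transcripts and not from a label, and each side held both genotypes. The mutant carries the deletion allele tm4397 of *atf-4*, the *C. elegans* gene for the transcription factor ATF4, and WT is strain N2. The 3 ATF-4OE libraries carry the integrated transgene *ldIs119*, in which the *atf-4* promoter drives genomic *atf-4* fused to GFP beside the marker *rol-6(su1006)*, and took no part in the split. Each library pooled about 20000 animals, arrested as L1 larvae and grown at 20 °C on plates of about 1000, with the 3 strains of a replicate grown together. The labels call every sample L4 and give no hour within the stage.

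A *C. elegans* hermaphrodite makes its sperm during L4 and then turns its germ line to oocytes. Sperm run on the major sperm protein (MSP), which is made from many near-identical *msp* genes and drives both crawling of the sperm and signalling to oocytes. In the last part of L4 the epidermis builds the adult cuticle, whose layers are held apart by collagen struts, and the intestine starts to make vitellogenin, the yolk protein that feeds oocytes. Cuticle collagens are made in waves within each moulting cycle, so whole animals taken at different points of 1 larval stage can hold different collagen RNAs.

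The names of the libraries differed between the deposited sheets. Columns were matched by their values, and 6 of 9 libraries carried another genotype in the header of the RPKM sheet than in the sheet of centred and scaled values, which was used here under its own names. A sheet of 39 genes gave all 9 libraries the genotype used here but exchanged mutant replicates 2 and 3. Under the numbers used here WT and the mutant of each replicate fell on opposite sides of the split, in 3 of 3 replicates. With replicates 2 and 3 of the mutant exchanged, WT and the mutant shared a side in 2 of 3 replicates. The numbers alone therefore decide whether the split crosses replicates grown at the same time. Deviations from the genotype mean correlated between WT and mutant at -0.68 and -0.62 for replicates 2 and 3 as numbered here. They correlated at 0.68 and 0.76 with the exchange. Which numbering is right was not tested.

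Levels are given in parts of 1000000 (ppm), each library's RPKM rescaled to the same sum, so that they are per length of transcript. Differences are means of log2(ppm + 1), which understates the change of low genes. The step between RPKM values put depth at 26.8 to 30.4 M reads in the high libraries, against 24.84 to 27.34 M in the low libraries, and at 23.68 to 35.06 M in ATF-4OE. For a transcript of 1000 bases 1 ppm stood for 20.3 to 22.1 reads in the high libraries and 19.1 to 20.4 reads in the low libraries. The 10 genes with the highest levels took 8.24 to 8.83% of the high libraries and 8.72 to 10.6% of the low libraries. *atf-4* was at 5289, 4184 and 6845 ppm in ATF-4OE replicates 1 to 3, at 3.81, 3.69 and 9.31 ppm in the mutants and at 199.6, 167.7 and 214.5 ppm in WT. All 9 levels thus stood with the genotype names used here.

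The split itself rested on the sperm transcripts, which are described and not tested. Over 61 genes of 3 sperm lists the median log2 level was 1.36 in WT replicate 1, 3.05 in WT replicate 3 and 3.69 in mutant replicate 2, against 0.29 in WT replicate 2, 0.35 in mutant replicate 1 and 0.11 in mutant replicate 3. WT replicate 1 was the lowest of the high libraries by a wide margin. Summed levels of the same genes were 162, 556 and 947 ppm in these high libraries, against 68.6, 70.8 and 74.8 ppm in the low libraries. In whole animals, fewer cells of a type and less RNA per cell cannot be told apart. The markers of male neurons and seminal fluid *lov-1*, *pkd-2* and *try-5* read at most 0.540 RPKM in the high libraries and 0.432 RPKM in the low libraries. *mab-3*, a regulator of male traits, read 2.02 to 4.72 RPKM in the high libraries and 1.51 to 2.72 RPKM in the low libraries. *swm-1*, a protease inhibitor of male seminal fluid, read 22.1 to 39.04 RPKM in the high libraries and 12.7 to 29.8 RPKM in the low libraries. Both overlapped and both had higher means in the high libraries (log2 0.46 and 0.47), and the part of male tissue in the split was not tested.

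**Figure D1:**
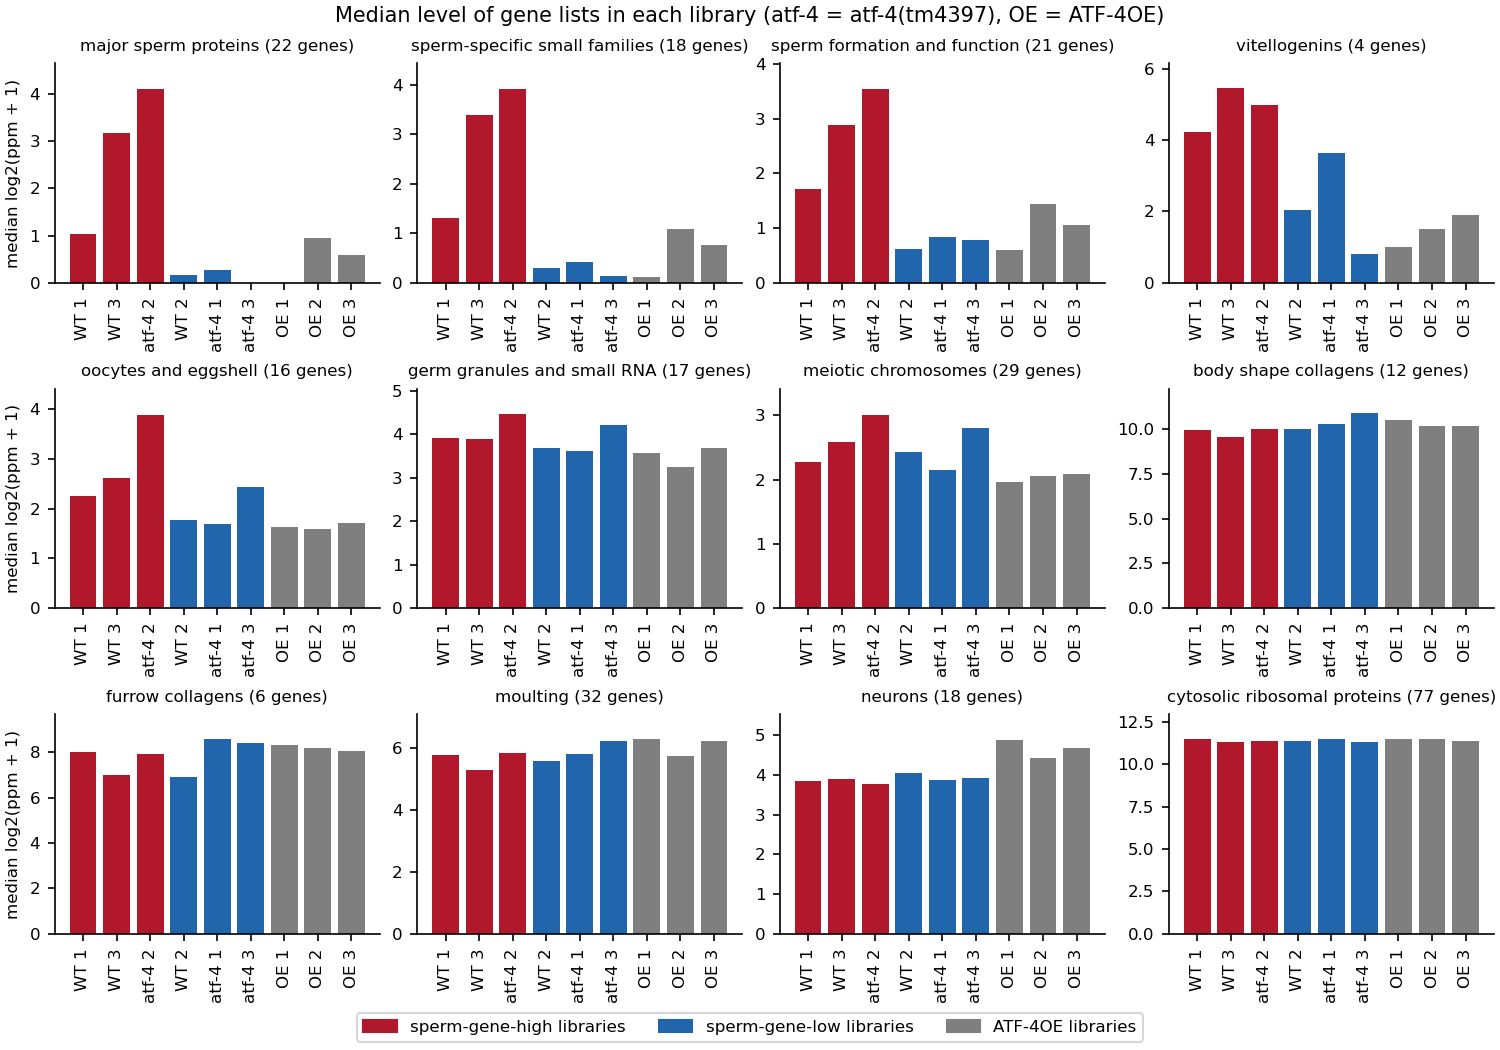
Bars give the median log2(ppm + 1) of each gene list in each of the 9 libraries, with the sperm-gene-high libraries in red, the sperm-gene-low libraries in blue and ATF-4OE in grey; every axis starts at 0. The 3 sperm lists and the vitellogenins separate the red from the blue bars, while ribosomal proteins stand between 11.34 and 11.52 in all 9 libraries.

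Of 11287 genes with at least 5 ppm in any library, 410 were counted higher in the high libraries (3.63% of the genes) and 43 were counted lower (0.381%), together 453 (4.01%). A gene was counted where its mean differed by more than 1 on the log2 scale and the 2 sides did not overlap. Because the libraries were chosen by their RNA, these counts carry no test and no p-value. Across all genes the median difference was 0.02. The counted higher genes made up 1.4, 2.303 and 2.11% of the summed level in WT replicate 1, WT replicate 3 and mutant replicate 2, against 0.366, 0.470 and 0.266% in WT replicate 2, mutant replicate 1 and mutant replicate 3. Principal component 1 of the 6 libraries held 54.5% of the variance and placed the high libraries at 10.5, 41.4 and 33.4, against -24.3, -14.3 and -46.6 for the low libraries. Component 2, with 23.4%, set mutant replicates 2 and 3 (-30.6 and -26.5) apart from the other 4 libraries (6.61 to 19.3), and these 2 mutants lay on opposite sides. At the limit, *fbxa-27* (1.01) was the last gene inside and *C30G12.2* (0.98) the first outside. A further 48 genes passed 1 and 66 passed -1 with overlapping libraries.

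In every row of 3 values below, the high libraries stand in the order WT replicate 1, WT replicate 3, mutant replicate 2, and the low libraries in the order WT replicate 2, mutant replicate 1, mutant replicate 3.

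**Figure D2:**
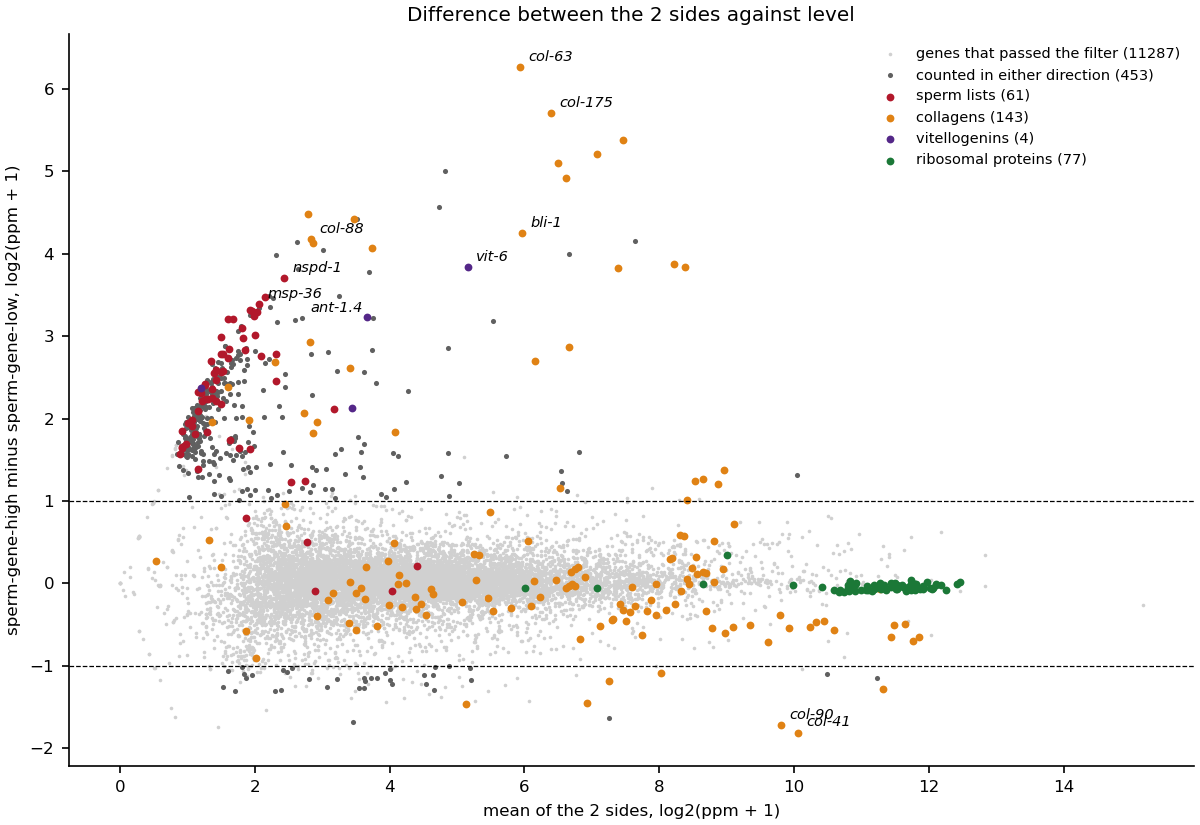
Each point is 1 of 11287 genes, with its mean level over the 2 sides on the horizontal axis and its high minus low difference on the vertical axis, both on the log2(ppm + 1) scale; dashed lines mark a difference of 1 in each direction. Sperm genes (red) lie at low levels with differences up to 3.71, collagens (orange) hold the largest differences in both directions (6.27 and -1.81), and ribosomal proteins (green) lie between -0.11 and 0.34.

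Sperm genes chose the sides, so their counts restate the choice and are given as a description. Of the 61 that passed the filter, 56 were below 5 ppm in all low libraries and passed only through another library. All 22 *msp* genes that passed the filter, of 24 in the sheet, were counted higher, with differences of 1.57 to 3.39 and a median of 2.52. *msp-36* (chromosome IV, 10095433 to 10095816) was at 3.18, 16.9 and 32.3 ppm in the high libraries, against 0.461, 0.324 and 0.115 ppm in the low libraries. The lowest high library was 6.90 times the highest low library for this gene. *msp-64* was at 0.886, 18.9 and 27.6 ppm in the high libraries and at 0.373, 0.233 and 0 ppm in the low libraries. Mutant replicate 2 held the highest level of the high side for 22 of 22 *msp* genes and WT replicate 1 the lowest. *msp* genes share most of their sequence and how reads that fit several copies were counted is not given in the sources used here, so single members are uncertain.

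The small sperm-specific families behaved alike. Of 18 genes that passed, 16 were counted higher (median 2.63), among them all 8 *nspd* genes, which code for short nematode-specific peptides, and all 4 *ssq* genes. *nspd-1* was at 4.48, 27.5 and 46.3 ppm in the high libraries, against 0.457, 1.28 and 0 ppm in the low libraries. *ssq-2* was at 3.08, 13.2 and 35.7 ppm in the high libraries, against 0.517, 0.372 and 0.0792 ppm in the low libraries. *msd-4*, whose product carries an MSP domain, was at 4.15, 19.5 and 29.9 ppm in the high libraries and at 0.359, 0.559 and 0.119 ppm in the low libraries. *nspd-7* kept a level in the low libraries (5.02, 3.45 and 2.06 ppm) that other members lacked, and was at 6.97, 24.0 and 32.5 ppm in the high libraries. The 2 members not counted, *msd-2* (1.83) and *ssp-10* (1.91), overlapped in WT replicate 1.

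Genes needed to form or use sperm were more mixed, with 15 of 21 counted higher and a median of 1.69. *spe-18*, needed to assemble MSP fibres, was at 4.81, 11.7 and 29.5 ppm in the high libraries, against 1.24, 1.28 and 0.341 ppm in the low libraries. *gsp-3* (2.98) and *gsp-4* (2.59), the protein phosphatases of sperm, and *alg-3* (2.17) and *alg-4* (2.47), the Argonautes of the sperm small RNA pathway, were also counted. *spe-44* (1.63), a transcription factor that turns on sperm genes, and *cpb-1* (1.23), an RNA-binding protein of spermatocytes, differed less. *spe-4*, the presenilin of the sperm membrane organelles, was at 6.22, 9.69 and 13.2 ppm in the high libraries and at 2.79, 3.64 and 3.73 ppm in the low libraries. In contrast *spe-39* was at 14.5, 14.1 and 16.3 ppm in the high libraries and at 13.8, 14.5 and 20.2 ppm in the low libraries, a difference of -0.09. *spe-39* acts in vesicle traffic in many tissues as well as in sperm. *spe-48* (0.21) also overlapped between the sides. The other 6 genes of this list in the sheet, among them *fer-1*, did not reach 5 ppm in any library.

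Outside the sperm genes the germ line lists are short. Over all genes 3.63% were counted higher and 0.381% lower, so counts near 0 in lists of this size say little. Of 23 genes of germ cell sex determination, 1 was counted, *cpb-2* (1.81), and the median difference was 0.07, with -0.13 without mutant replicate 1 and -0.16 without mutant replicate 2. *fem-1*, which promotes the male fate, was at 26.7, 26.8 and 31.1 ppm in the high libraries and at 25.5, 26.2 and 30.4 ppm in the low libraries. *fog-1*, required for sperm fate, was at 4.40, 2.28 and 7.25 ppm in the high libraries and at 5.81, 4.95 and 14.6 ppm in the low libraries. Both genes overlapped between the sides, as did 22 of the 23 in this list. *gld-1*, a translational repressor of meiotic germ cells, was highest in mutant replicate 2 (66.9 ppm) and at 18.8 and 19.5 ppm in the other high libraries, against 12.27, 11.5 and 24.5 ppm in the low libraries.

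None of 29 genes of meiotic chromosomes and none of 17 genes of germ granules and small RNA were counted. Over all genes 3.63% were counted higher, and the median difference was 0.30 in both lists. All 17 of the second list and 25 of 29 of the first lay above 0, although 16 and 28 overlapped between the sides. Without overlap 1 gene of each list was higher, against 10.0% of all genes. Of the 29 meiotic genes, 9 were below 5 ppm in all low libraries and passed the filter only through another library, which leans their signs upward. The medians of both lists rested on single libraries. Without mutant replicate 2 they were 0.03 for meiotic chromosomes and 0.01 for germ granules, and without mutant replicate 3 they were 0.56 and 0.53. *csr-1*, an Argonaute of the germ line, did not overlap, at 56.1, 68.8 and 79.8 ppm in the high libraries and 55.4, 44.6 and 51.9 ppm in the low libraries. *him-3*, a protein of the meiotic chromosome axis, came nearest (0.93), at 13.5, 17.9 and 32.5 ppm in the high libraries and 9.69, 7.23 and 13.9 ppm in the low libraries. *pgl-1*, a core protein of germ granules, was at 36.4, 28.9 and 86.96 ppm in the high libraries and at 28.8, 25.6 and 53.5 ppm in the low libraries. *glh-1*, the germ granule helicase, was at 86.8, 77.8 and 178 ppm in the high libraries and at 84.6, 64.8 and 134 ppm in the low libraries. For both, mutant replicates 2 and 3 held the 2 highest levels although they lie on opposite sides. The same 2 libraries stood apart on component 2. Among 25 genes of DNA replication and the cell cycle none were counted and the median was 0.03. *pcn-1*, the sliding clamp of DNA polymerase, was at 84.9, 71.3 and 86.5 ppm in the high libraries and at 63.2, 82.9 and 93.7 ppm in the low libraries.

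Of 16 genes of oocytes and the eggshell, 2 were counted higher, against 3.63% of all genes. In this list 14 lay above 0 and the median was 0.71, or 0.31 without mutant replicate 2. However, 8 of the 16 were below 5 ppm in all low libraries and passed the filter only through another library. The filter thus leans the count, the signs and the median upward. The genes counted were *perm-2* and *perm-4*, whose products are needed for the permeability barrier of the egg. *perm-4* was at 3.74, 9.29 and 13.8 ppm in the high libraries, against 0.228, 0.427 and 0.181 ppm in the low libraries. *perm-2* was at 1.81, 4.98 and 6.40 ppm in the high libraries, against 0, 0.340 and 0.0722 ppm in the low libraries. The other 14 genes were not counted. *oma-1* (0.89), needed for oocyte maturation, was at 3.74, 3.996 and 9.01 ppm in the high libraries and at 1.98, 1.85 and 3.33 ppm in the low libraries, so the sides did not overlap but the difference stayed under the limit. *rme-2*, the yolk receptor of oocytes, was at 1.75, 2.23 and 5.995 ppm in the high libraries and at 0.755, 0.875 and 2.61 ppm in the low libraries, which overlapped. *lin-41* (-0.62) and *mex-3* (-0.45), which regulate RNA in oocytes, had lower means in the high libraries.

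All 4 vitellogenin genes that passed were counted higher, against 3.63% of all genes, with a median of 2.80. Of the 4, 1 was below 5 ppm in all low libraries and passed only through another library. *vit-6* (chromosome IV, 8261157 to 8266459) was at 81.3, 226 and 131 ppm in the high libraries, against 9.02, 41.8 and 0.990 ppm in the low libraries. Its mean was 146 ± 73.5 ppm in the high libraries and 17.3 ± 21.6 ppm in the low libraries (SD, n = 3 each). *vit-2* was at 15.8, 83.5 and 40.8 ppm in the high libraries and at 2.91, 11.1 and 0.513 ppm in the low libraries. *vit-1* was at 19.9, 21.8 and 23.3 ppm in the high libraries and at 3.39, 12.02 and 1.44 ppm in the low libraries. *vit-3* was at 1.25, 11.4 and 4.19 ppm in the high libraries and at most 0.0400 ppm in the low libraries. WT replicate 3 was the highest library for 3 of these 4 genes and mutant replicate 1 was the highest of the low side for all 4. Of 10 genes that mark the intestine itself none were counted, while 9 lay above 0 (median 0.15). Without overlap, 2 of the 10 were higher, against 10.0% of all 11287 genes. *vha-6*, a proton pump subunit of the intestine, was at 355, 351 and 325 ppm in the high libraries, against 304, 296 and 254 ppm in the low libraries. *erm-1*, which links actin to the apical membrane, was at 281, 278 and 273 ppm in the high libraries, against 264, 247 and 259 ppm in the low libraries. In contrast, *act-5*, the actin of the intestinal brush border, was at 3093, 2860 and 2428 ppm in the high libraries and at 2548, 2819 and 1625 ppm in the low libraries, which overlapped.

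The largest differences of all belonged to cuticle collagens. *col-63* (chromosome I, 8243694 to 8244963) was at 345, 766 and 584 ppm in the high libraries, against 6.15, 44.8 and 0.0425 ppm in the low libraries, a difference of 6.27. *col-175* (5.71) was at 444, 797 and 625 ppm in the high libraries, against 13.99, 77.1 and 0.339 ppm in the low libraries. *col-138* (5.38) was at 820, 1428 and 1254 ppm in the high libraries, against 26.6, 142 and 4.19 ppm in the low libraries. For these genes the low libraries themselves spanned a wide range, with mutant replicate 1 highest and mutant replicate 3 lowest. Of the 15 genes with the largest differences, 10 were collagens of the *col*, *bli* and *rol* families. Among all 102 *col* genes that passed, 25 were counted higher and 6 lower, against 3.63 and 0.381% of all genes, and the median was 0.13. Of the 102, 17 were below 5 ppm in all low libraries and passed the filter only through another library.

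The collagens whose loss blisters the cuticle were among them. *bli-1*, a strut collagen, was at 280, 217 and 328 ppm in the high libraries, against 18.2, 83.3 and 0.818 ppm in the low libraries. *bli-2*, its partner in the struts, was at 607, 684 and 604 ppm in the high libraries, against 38.9, 200 and 10.0 ppm in the low libraries. *bli-6* was at 628, 979 and 885 ppm in the high libraries and at 30.3, 160 and 1.15 ppm in the low libraries. The collagen gene *rol-1*, whose mutants roll as adults, was at 365, 728 and 598 ppm in the high libraries, against 11.9, 53.2 and 7.16 ppm in the low libraries. In the low libraries these genes kept the order mutant replicate 1, WT replicate 2, mutant replicate 3 from high to low. The same order held for *col-63*, *col-175* and *col-138*.

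A second set of collagens was high in 1 library above all. *col-88* was at 5.04, 126 and 35.5 ppm in the high libraries, against 0.925, 0.662 and 0.487 ppm in the low libraries. *col-60* was at 6.58, 98.6 and 36.9 ppm in the high libraries and at 1.55, 0.572 and 0.328 ppm in the low libraries. *col-181* was at 10.5, 104 and 28.7 ppm in the high libraries and at 0.619, 0.579 and 0.237 ppm in the low libraries. In these genes WT replicate 3 held the highest level and WT replicate 1 the lowest of the high side. Over the 29 collagens counted higher, WT replicate 3 was the highest of the high side in 25, and mutant replicate 3 the lowest of the low side in 21. Sperm genes had another order. Over the 53 sperm genes counted higher, mutant replicate 2 was the highest in 52 and WT replicate 1 the lowest of the high side in 52.

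**Figure D3:**
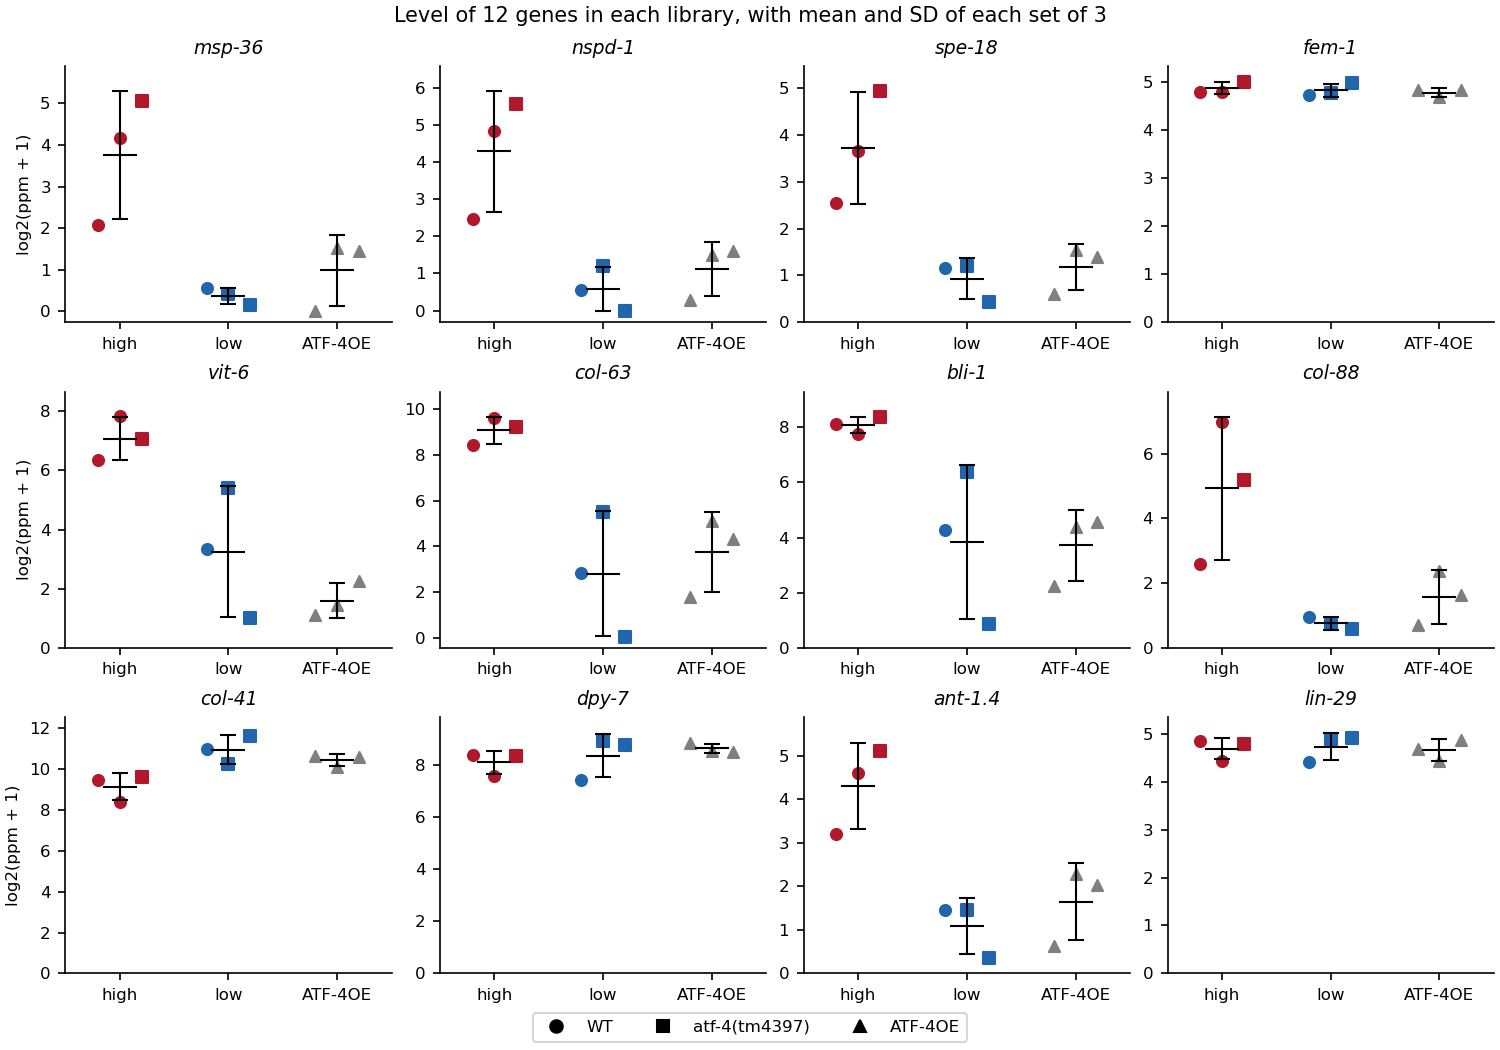
Points give log2(ppm + 1) of 12 genes in every library, with circles for WT, squares for *atf-4(tm4397)* and triangles for ATF-4OE, and the bar gives mean and SD of the 3 libraries of a set. The high libraries (red) lie above the low libraries (blue) for *msp-36*, *col-63*, *bli-1* and *vit-6*, lie below them for *col-41*, and overlap them for *fem-1*, *dpy-7* and *lin-29*.

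Other collagens were lower in the high libraries. *col-41* was at 701, 332 and 784 ppm in the high libraries, against 2059, 1204 and 3194 ppm in the low libraries, a difference of -1.81. *col-90* (-1.72) was at 574, 340 and 613 ppm in the high libraries and at 1701, 1171 and 2169 ppm in the low libraries. *col-17* (-1.28) was at 1807, 1175 and 2099 ppm in the high libraries and at 3706, 2844 and 6091 ppm in the low libraries. These 3 collagens were at high level in all 6 libraries, so their differences concern far more RNA than those of the sperm genes. *cut-2*, a cuticlin of the insoluble cuticle, was at 1440, 1468 and 1991 ppm in the high libraries and at 4252, 2019 and 5303 ppm in the low libraries.

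The collagens that shape the body had lower means in the high libraries in 9 of 12 cases. Apart from *bli-1* and *bli-2*, none of the 12 body shape collagens were counted, against 3.63% of all genes higher and 0.381% lower. The list's median was -0.52. *dpy-13* was at 2768, 2645 and 3532 ppm in the high libraries and at 4443, 3215 and 6957 ppm in the low libraries. *sqt-3* was at 2699, 2345 and 3130 ppm in the high libraries and at 2768, 3331 and 6015 ppm in the low libraries. *rol-6* (-0.71) did not overlap, at 605, 572 and 655 ppm in the high libraries, against 962, 750 and 1379 ppm in the low libraries. Nor did *dpy-5* (-0.65), at 2205, 1979 and 2503 ppm in the high libraries, against 3454, 2531 and 4868 ppm in the low libraries. The other 8 members apart from *bli-1* and *bli-2*, *dpy-13* and *sqt-3* among them, overlapped. Without mutant replicate 3, which held the highest levels, the median of this list was -0.23. The 6 furrow collagens, made early in each cycle for the annular furrows, lay between -0.39 and -0.25 and none were counted. Their median of -0.30 was -0.01 without WT replicate 3, -0.02 without mutant replicate 1 and -0.09 without mutant replicate 3. It was -0.82 without WT replicate 2. *dpy-7* was at 335, 191 and 322 ppm in the high libraries and at 169, 480 and 430 ppm in the low libraries. For all 4 furrow collagens named by rule (*dpy-3*, *dpy-7*, *dpy-8*, *dpy-9*) the 2 lowest libraries were WT replicates 2 and 3, 1 from each side, so these genes ordered the libraries in another way than the split.

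Of moulting cycle genes 0 of 32 were counted higher and 1 of 32 counted lower, against 3.63 and 0.381% of all genes. The list's median of -0.17 turned to 0.10 without mutant replicate 3. The gene counted lower was *nhr-25*, a nuclear receptor of the epidermis, at 9.66, 7.03 and 8.91 ppm in the high libraries, against 20.0, 14.97 and 26.9 ppm in the low libraries. *noah-1*, a component of the temporary outer matrix, was at 381, 225 and 391 ppm in the high libraries and at 178, 480 and 548 ppm in the low libraries. *mlt-10*, needed for moulting, was at 292, 220 and 448 ppm in the high libraries and at 281, 307 and 731 ppm in the low libraries. Of 31 hedgehog-related genes 1 was counted higher, against 3.63% of all genes. This gene, *wrt-6*, was at 164, 262 and 169 ppm in the high libraries, against 50.2, 76.4 and 66.8 ppm in the low libraries. The 25 patched-related genes had a median of -0.44, 21 of them below 0, with none counted and -0.17 without mutant replicate 3.

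Genes that time the larva-to-adult switch differed from each other, with 1 of 10 counted higher, against 3.63% of all genes. *lin-29*, the transcription factor that runs the switch in the epidermis, was at 27.9, 20.7 and 26.7 ppm in the high libraries and at 20.4, 28.6 and 29.03 ppm in the low libraries, a difference of -0.04. Its cofactor *mab-10* was counted higher, at 53.3, 43.7 and 50.1 ppm in the high libraries, against 14.7, 37.8 and 15.4 ppm in the low libraries. *col-19*, a collagen of the adult cuticle, was at 1.19, 31.5 and 4.87 ppm in the high libraries and at 1.79, 0.719 and 0.408 ppm in the low libraries, so that WT replicate 1 overlapped the low side. *lin-46* (-0.93) and *lin-41* (-0.62) had lower means in the high libraries. With no hour in the labels, age within L4 could not be checked, and its part in the split was not tested.

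The 43 genes counted lower (0.381% of all) were mostly in no list (36), and those that follow were named after their values were seen. *daf-7*, the TGF-beta ligand that holds off dauer entry, was at 2.14, 1.27 and 4.33 ppm in the high libraries, against 5.396, 4.99 and 13.6 ppm in the low libraries. *daf-28*, an insulin-like peptide, was at 7.36, 3.08 and 11.7 ppm in the high libraries, against 11.8, 13.1 and 32.4 ppm in the low libraries. The insulin-like genes *ins-4* (-1.11) and *ins-12* (-1.02) and the neuropeptide genes *nlp-49* (-1.12) and *nlp-56* (-1.14) were counted too. By gene name, 2 of 14 *ins*, 2 of 56 *nlp* and 2 of 21 *daf* genes that passed the filter were counted lower. *tba-8*, an alpha-tubulin, was at 6.53, 3.08 and 6.51 ppm in the high libraries, against 9.49, 21.6 and 31.4 ppm in the low libraries. Several of these genes lie near the limit, and 20 genes in place of 43 were counted lower without mutant replicate 3, 12 of them the same. Without mutant replicate 1 the count was 240, which held all 43.

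Over all genes 3.63% were counted higher and 0.381% lower, so a count of 0 in the short lists of other tissues says little. Of 22 body wall muscle genes none were counted (median 0.02), and *unc-54*, the main myosin heavy chain, was at 834, 669 and 937 ppm in the high libraries and at 620, 768 and 1105 ppm in the low libraries. Of 18 neuronal genes none were counted and 17 lay below 0, with a median of -0.24. For 10 of the 18 the high libraries were lower without overlap, against 6.32% of all genes. *egl-3*, a convertase of neuropeptides, was at 91.2, 87.4 and 87.9 ppm in the high libraries and at 107, 95.2 and 112 ppm in the low libraries. The 77 ribosomal protein genes had a median of -0.05 and no member was counted. None of 10 vulval genes and none of 13 epidermal antimicrobial peptides were counted. Of 19 heat shock genes 2 were counted higher, *hsp-12.3* (1.15) and *hsp-12.6* (1.04), against 3.63% of all genes.

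Most of the remaining genes were in no list. Of the 410 genes counted higher, 53 were members of the sperm lists and 317 of no list at all, and 245 had no letter-number gene name. By annotation 393 were protein-coding, 7 pseudogenes, 6 piRNA genes, 2 ncRNA and 2 snoRNA genes. Poly(A) libraries are not made to measure piRNA or snoRNA, so reads of an overlapping gene cannot be told apart from theirs. Families by gene name with every member that passed counted higher were *msp*, *nspd*, *ssq*, *msrp* (4 of 4), *vit* (4 of 4), *spch* (3 of 3), which codes for sperm chromatin proteins, *gipc*, *smz* and *ule* (2 of 2 each). *ule-4*, named for its expression in the uterine lumen, was at 10.4, 47.3 and 30.5 ppm in the high libraries and at 0.115, 1.82 and 0 ppm in the low libraries. *E01G4.6* was at 696, 930 and 925 ppm in the high libraries, against 42.5, 140 and 16.4 ppm in the low libraries. The neighbours *Y51H7C.13* (5.01) and *Y51H7C.1* (4.43) lie on chromosome II at 1463268 to 1466548 and 1467727 to 1469630. For 12 of the 410 genes all low libraries were listed at 0, and for 334 the lowest low library was under 1 ppm.

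Among the 19 genes that the study names from its RNA-seq, 9 were counted higher (against 3.63% of all genes) and none lower, and since they were picked from these same libraries the count is not independent evidence. Among them 6 were collagens (*col-60*, *col-88*, *col-106*, *col-120*, *col-122*, *col-181*), and the others were *ant-1.3*, *ant-1.4* and *hsp-12.3*. *ant-1.4*, an adenine nucleotide translocase of mitochondria, was at 8.19, 23.4 and 33.5 ppm in the high libraries, against 1.76, 1.75 and 0.274 ppm in the low libraries. *ant-1.3* was at 6.97, 22.6 and 31.9 ppm in the high libraries, against 1.39, 1.93 and 0.154 ppm in the low libraries. *ant-1.1*, the abundant member of the family, was at 3470, 3335 and 3475 ppm in the high libraries and at 3245, 3441 and 3513 ppm in the low libraries. Near-identical coding sequences make *ant-1.3* and *ant-1.4* uncertain as single genes. *hsp-16.2* (0.56), *hsp-70* (0.87) and *sip-1* (0.47) overlapped between the sides. *cth-2*, which codes for cystathionine gamma-lyase, was at 225, 214 and 173 ppm in the high libraries and at 136, 169 and 105 ppm in the low libraries (0.59), under the limit.

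The split also bears on the comparison of genotypes, which is set by the labels and was tested. In limma over all 9 libraries, 3 genes were higher and 2 lower in *atf-4(tm4397)* than in WT (0.0266 and 0.0177% of 11287) with a Benjamini-Hochberg adjusted p below 0.1 and a fold of more than 2 in either direction. *scb-1* was at 33.2, 34.4 and 31.8 ppm in mutant replicates 1 to 3, against 10.1, 10.2 and 15.6 ppm in WT replicates 1 to 3 (log2 1.42, SE 0.16, limma adjusted p = 0.0258). *spp-21*, a saposin-like gene on X, was at 12.8, 16.9 and 10.1 ppm in the mutants and was listed at 0 in all 3 WT libraries, and its neighbour *T25C12.3* was lower in the mutants (log2 -2.56, SE 0.24, limma adjusted p = 0.00618). *lido-11* rose by 1.07 and *atf-4* itself fell by 4.98 on the log2 scale (limma adjusted p = 0.0468 and 0.00044). *lido-11* no longer passed with the replicate number as a block (limma adjusted p = 0.425) or with only the 6 libraries (0.465). It also failed without WT replicate 2 (limma adjusted p = 0.283), WT replicate 3 (0.107), mutant replicate 2 (0.278) or mutant replicate 3 (0.197). With a pseudocount of 4 its log2 difference was 0.71, under the fold limit. *scb-1* no longer passed without WT replicate 2 (limma adjusted p = 0.160), without mutant replicate 2 (0.216) or with only the 6 libraries (0.281). In all 5 genes the 3 mutants and the 3 WT libraries did not overlap. The genes were called by genotype on these same libraries, so this is largely set by the call and is no check across the split. The genes of the split were chosen for libraries of 1 genotype that lie apart, so a wide spread within genotypes and the lack of a genotype call were fixed by the rule and carry no information on the genotype. As a description, 0 of 453 passed the same limma test without a fold limit, where 4 genes were higher (0.0354%) and 2 lower (0.0177%) over all genes. Their median standard error of the genotype difference was 0.89 for the counted higher and 0.46 for the counted lower genes, and it was 0.17 over all genes. Since the high side holds 1 mutant and 2 WT libraries and the low side 2 mutants and 1 WT, the genotype difference of a gene contains part of its split difference with the sign turned. The counted lower genes had a median mutant minus WT difference of 0.73 and the counted higher genes one of -0.21.

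The values by genotype show this for single genes. *col-88* was at 0.662, 35.5 and 0.487 ppm in mutant replicates 1 to 3, against 5.04, 0.925 and 126 ppm in WT replicates 1 to 3, and its log2 difference of -1.34 had a limma adjusted p of 0.76. *ant-1.4* was at 1.75, 33.5 and 0.274 ppm in the mutants, against 8.19, 1.76 and 23.4 ppm in WT, with a log2 difference of -0.79 (limma adjusted p = 0.81). *vit-6* was at 41.8, 131 and 0.990 ppm in the mutants, against 81.3, 9.02 and 226 ppm in WT, with -1.35 (limma adjusted p = 0.74). These 3 genes were counted by the rule, which sets replicates of a genotype apart. A p that misses the limit does not show that the genotypes were alike.

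The ATF-4OE libraries took no part in the split, and their levels of the same genes are given as a description. Their median over the 61 sperm genes was 0.12, 1.14 and 0.77 in replicates 1 to 3. For 340 of the 410 genes counted higher, all 3 ATF-4OE libraries lay below the lowest high library. For 47 of the 410 all 3 lay above the highest low library. Of the 43 genes counted lower, 33 had all 3 above the highest high library and 4 had all 3 below the lowest low library. The rule chose genes whose 2 sides lie apart, and the same shares over all genes were not taken. Replicate 2, with the most sperm RNA, was then set against replicate 1, with the least, leaving the sperm lists out. Of 357 remaining genes counted higher, 64 (17.9%) were over 1 on the log2 scale in replicate 2 minus replicate 1, against 127 of 11226 genes (1.13%) overall. The median of the 357 was 0.55, that of all genes -0.12, and 319 lay above 0. Of the 43 genes counted lower, 37 lay below 0, 1 passed -1, and the median was -0.35. *col-63* was at 2.42, 33.9 and 19.2 ppm in ATF-4OE replicates 1 to 3, and *bli-1* was at 3.71, 19.7 and 22.6 ppm. *vit-6* stayed low there, at 1.15, 1.70 and 3.80 ppm. With 1 library on each side of it, this comparison has no replicate check. Its 2 libraries were picked by the same sperm RNA that set the sides of the split. The counted genes were not matched in level to all genes, so these shares are not independent evidence.

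**Figure D4:**
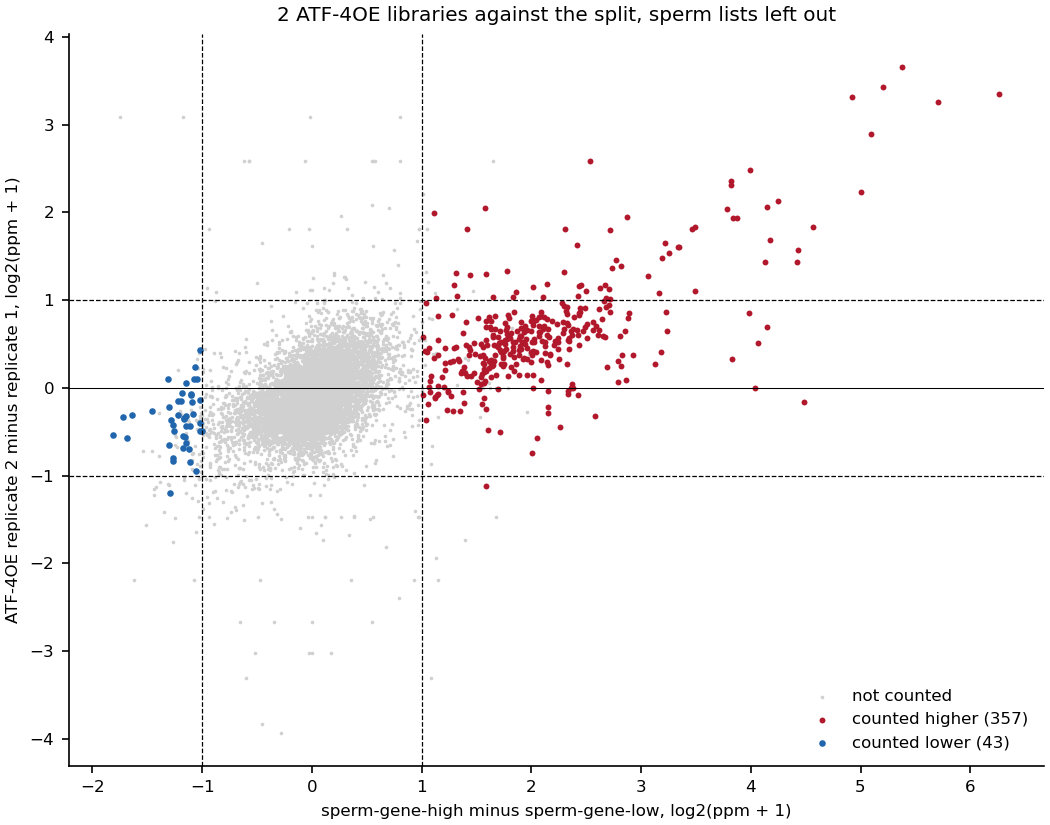
Each point is 1 gene outside the sperm lists, with its sperm-gene-high minus sperm-gene-low difference on the horizontal axis and ATF-4OE replicate 2 minus replicate 1 on the vertical axis, both on the log2(ppm + 1) scale, and dashed lines at 1 in each direction. Of the genes counted higher (red), 319 of 357 lie above 0 on the vertical axis, and of those counted lower (blue), 37 of 43 lie below it.

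Position in the genome was not used by the rule. Of the 410 genes counted higher, 33 (8.05%) lie on the X chromosome, against 14.2% of all 11287 genes. The 410 include the sperm genes that set the sides. The 53 sperm genes had 0 on X and 25 (47.2%) on IV, where sperm gene clusters are known to lie. The 357 other genes counted higher had 9.24% on X and 27.5% on IV, against 17.1% of all genes on IV. The X share of the genes counted higher depended on the filter. It was 16.8% where 5 ppm was required in 3 libraries, a filter that leaves 101 genes, and 5.17% with no filter. The 14.2% of all genes belongs to the main filter, and the share of all genes under the other filters is not given here. Among the 43 genes counted lower, 16 (37.2%) lie on V and 10 (23.3%) on X, against 18.3 and 14.2% of all genes. Genes of 1 cluster can share reads and neighbours, so these shares are a description with no test.

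**Figure D5:**
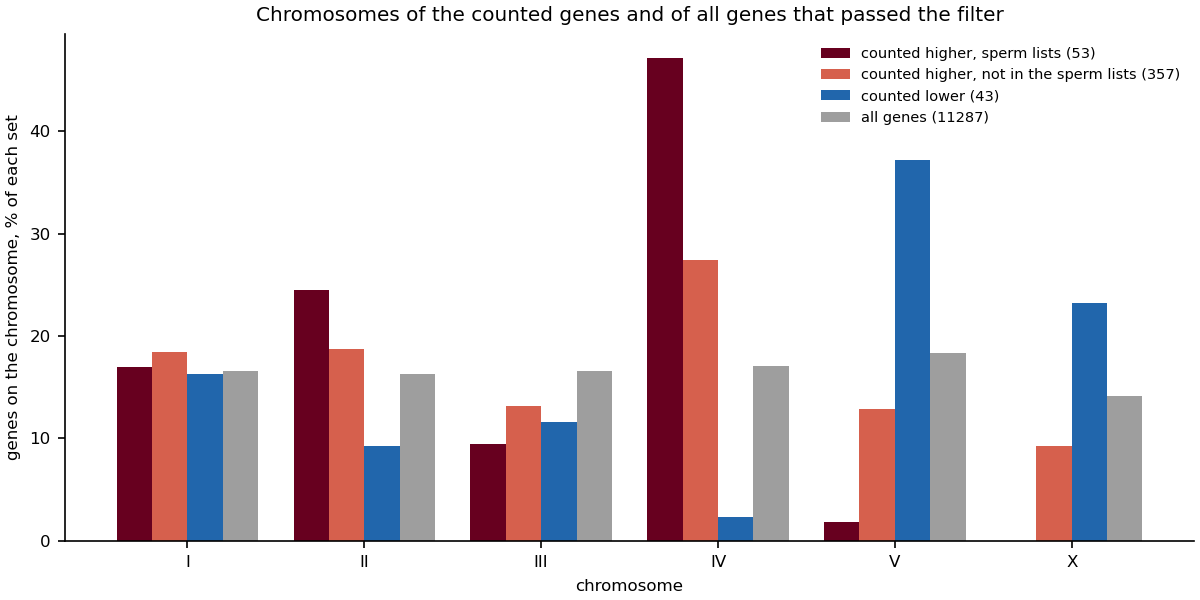
Bars give the percent of genes on each chromosome for the sperm-list genes counted higher, the other genes counted higher, the genes counted lower and all 11287 genes, on an axis that starts at 0. The sperm-list genes have 0 on X and 47.2% on IV.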

How the data were processed

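Poly(A) RNA was sequenced as single reads of 50 bp, with the 9 samples in 1 lane. By the study's methods, STAR 2.4.0j was the aligner, WBcel235 the genome and featureCounts the counter, and the authors left out transcripts under 1 CPM and deposited RPKM values. The authors also deposited scores, RPKM centred and scaled within each library, and scores of 39 genes. From the centred and scaled scores each library's lowest value was subtracted and the sum set to 1000000. Genes with at least 5 ppm in 1 library were kept. Names and positions came from Ensembl release 115 (WBcel235). limma 3.58.1 in R 4.3.3 (trend, two-sided) compared genotypes on log2(ppm + 1), a pseudocount of 1, and was tested on simulated data. Depth was read from RPKM steps with Ensembl exon lengths. Only 56.3 to 62.0% of low values per library came out whole within 0.05 read, so no count test was run. Tables used Python 3.11.15, pandas 2.3.3 and numpy 2.4.6, figures matplotlib 3.10.9.

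Libraries, the 26 gene lists and this report's rules were chosen with earlier results of these data known. Genes named were *atf-4*, the 15 with the largest difference per direction, up to 4 of the highest level per list and those the study names. Others were named after their values were seen, among them *bli-2*, *perm-2*, *perm-4*, *gld-1*, *fog-1*, *col-19*, *nhr-25*, *wrt-6*, *cut-2*, *oma-1*, *rme-2*, *gsp-3*, *gsp-4*, *alg-3*, *alg-4*, *cpb-1*, *cpb-2*, *spe-44*, *lin-46*, *hsp-12.6*, the genes called between genotypes and the peptide genes. By the study's methods the strains of 1 replicate were grown together. Deviations of WT and mutant libraries of 1 number, as numbered here, correlated at 0.26, -0.68 and -0.62 for replicates 1 to 3. With mutant replicates 2 and 3 exchanged the correlations were 0.26, 0.68 and 0.76.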

Additional observations from a re-analysis of the deposited data

How the results depend on the processing

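The count of genes higher in the high libraries depended on how low genes were treated. It was 221 (15 lower) with a pseudocount of 4, 773 (51 lower) with no filter, 101 (37 lower) with 5 ppm in 3 libraries and 216 (0 lower) at a log2 limit of 2, against 410 and 43. Where libraries could overlap, 458 were higher and 109 lower. Median-ratio scaling gave 401 and 60. Leaving out 1 library gave 397 to 472 higher and 20 to 240 lower, with 24 lower without WT replicate 3, 20 without mutant replicate 3, 74 without WT replicate 2, 240 without mutant replicate 1 and 174 without mutant replicate 2. The X share of the counted higher genes was 5.17% with no filter and 16.8% with 5 ppm in 3 libraries. The X share of all genes under these filters is not given here. Between ATF-4OE replicates 2 and 1, 11.6% of the counted higher genes (0.383% of all) passed 1 with a pseudocount of 4. The share was 33.7% (0.638% of all) with 5 ppm in 3 libraries. With no filter it was 9.31%, and the share of all genes is not given for that setting.

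For *atf-4(tm4397)* minus WT, leaving out 1 library gave 1 to 37 genes higher and 2 to 8 lower, with 37 and 7 without WT replicate 1 and 35 and 8 without mutant replicate 1. Without WT replicate 2 or mutant replicate 2 only *spp-21* was left higher. With the replicate block 2 were higher and 2 lower, and the same numbers were counted with mutant replicates 2 and 3 exchanged; the block changed no call but that of *lido-11*. With only the 6 libraries 1 was higher and 2 lower, and on the centred and scaled values, with no fold limit, 3 and 1, where *atf-4* itself was not called (-0.43, limma adjusted p = 0.805) and *lido-11* was lost (limma adjusted p = 0.119). Under the names of the RPKM sheet 0 were higher and 0 lower, 104 had an unadjusted limma p under 0.05, and *atf-4* differed by 0.15 in place of -4.98. Of the other values, 250 list medians and 1370 gene values stayed within the spread of the libraries and 9 and 17 moved beyond it. Without 1 library or another the median of 6 of 26 lists turned sign. The cause was not tested. For a transcript of 1000 bases 1 ppm is about 20.3 reads in the shallower high library, so levels under 1 ppm in short genes rest on few reads.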
